A study of Bos taurus with 10 samples.

Results

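SOD1, SOD2 and CAT were followed in cattle blood, 3 of the 24616 Ensembl genes in the deposited tables. SOD1 (ENSBTAG00000018854) encodes the copper-zinc superoxide dismutase, SOD2 (ENSBTAG00000006523) the manganese superoxide dismutase and CAT (ENSBTAG00000020980) catalase. They were chosen by these identifiers, and all 3 passed the filter on low counts. The names come with that choice, since the files do not pair identifiers with symbols. Poly(A) RNA was sequenced in 10 libraries, each from blood pooled from 3 animals. The 5 control pools came from cattle without the supplement, and the 5 supplemented pools from cattle given minerals to raise copper. The labels state no breed, age, dose or duration.

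Superoxide dismutases convert the superoxide radical into hydrogen peroxide and oxygen, and catalase breaks hydrogen peroxide down into water and oxygen. SOD1 works mainly in the cytosol and needs a copper ion in its active site, which it receives with the help of a dedicated copper chaperone. SOD2 works in the mitochondrial matrix with manganese, and its gene is known to be switched on by inflammatory signals in leukocytes. Catalase is a haem enzyme of peroxisomes and is abundant in red cells, where the protein outlasts its transcript. Activity of the copper-zinc enzyme in red cells is used in animal nutrition as a measure of copper status. Transcripts were measured here, and neither enzyme activity nor protein.

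The labels give 1 average copper level per pool, without a unit. Its mean was 52.6 ± 30.1 without and 228 ± 106 with the supplement (SD over 5 pools). The highest control, at 95.61, and the lowest supplemented pool, at 95.48, had nearly equal copper, and the extremes over all pools were 23.42 and 342.42. Library depth was 24487010 to 32663198 counts assigned to genes on the transcribed strand. The 3 genes therefore rested on 946 to 3932 counts per library. Levels are given as CPM, counts scaled to library size, with library sizes adjusted by the trimmed mean of M-values (TMM). Pools are numbered as in their titles. Nothing in the labels says whether pools came from separate herds or sampling days, so p-values measure the spread between these pools only. In bulk blood, fewer cells of a type and less RNA per cell cannot be told apart, and markers of blood cell types could not be read without symbols. Transcript lengths in the files' build were not used here, so levels are compared between pools and not between genes.

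SOD1, the enzyme that itself carries copper, had nearly the same level with and without the supplement. In control pools 1 to 5 its level was 118, 153, 112, 124 and 110 CPM. In supplemented pools 1 to 5 it was 122, 130, 110, 140 and 138 CPM. Control pool 2 was the highest of all 10 pools and control pool 5 the lowest, so the supplemented pools lay inside the range of the controls. The mean level was 124 ± 17.7 CPM without and 128 ± 12.3 CPM with the supplement (SD, n = 5 each). The log2 difference, supplemented minus control, was 0.05 with a standard error of 0.11. Its 95% interval ran from 0.878-fold to 1.23-fold. Over fits that each leave out 1 pool, the log2 difference ranged from 0.014 (control pool 5 left out) to 0.14 (control pool 2 left out).

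SOD2, the mitochondrial manganese enzyme, varied most of the 3 between pools. In control pools 1 to 5 its level was 58.0, 68.8, 43.9, 45.5 and 63.4 CPM. In supplemented pools 1 to 5 it was 57.3, 65.6, 35.9, 47.1 and 52.3 CPM. Both groups held high pools (control pools 1, 2 and 5, supplemented pools 1 and 2) and low ones, and only supplemented pool 3 lay below every control pool. The mean level was 55.9 ± 10.9 CPM without and 51.7 ± 11.1 CPM with the supplement (SD, n = 5 each). The log2 difference was -0.11 (SE 0.17), and its 95% interval ran from 0.721-fold to 1.18-fold. With 1 pool left out, the log2 difference ranged from -0.22 (supplemented pool 2 left out) to -0.0087 (supplemented pool 3 left out).

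CAT, which removes the hydrogen peroxide that both dismutases produce, had the narrowest relative range over the 10 pools. In control pools 1 to 5 its level was 63.1, 70.5, 74.4, 86.2 and 82.4 CPM. In supplemented pools 1 to 5 it was 78.7, 85.3, 72.7, 67.5 and 80.0 CPM. The lowest and the highest pool were both controls, and every supplemented pool fell between them. The mean level was 75.3 ± 9.25 CPM without and 76.8 ± 6.87 CPM with the supplement (SD, n = 5 each). The log2 difference was 0.03 (SE 0.11), and its 95% interval ran from 0.870-fold to 1.20-fold. In fits of 9 pools it ranged from -0.03 (control pool 1 left out) to 0.08 (control pool 4 left out), and it was also negative with supplemented pool 2 left out (-0.01).

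**Figure D1:**
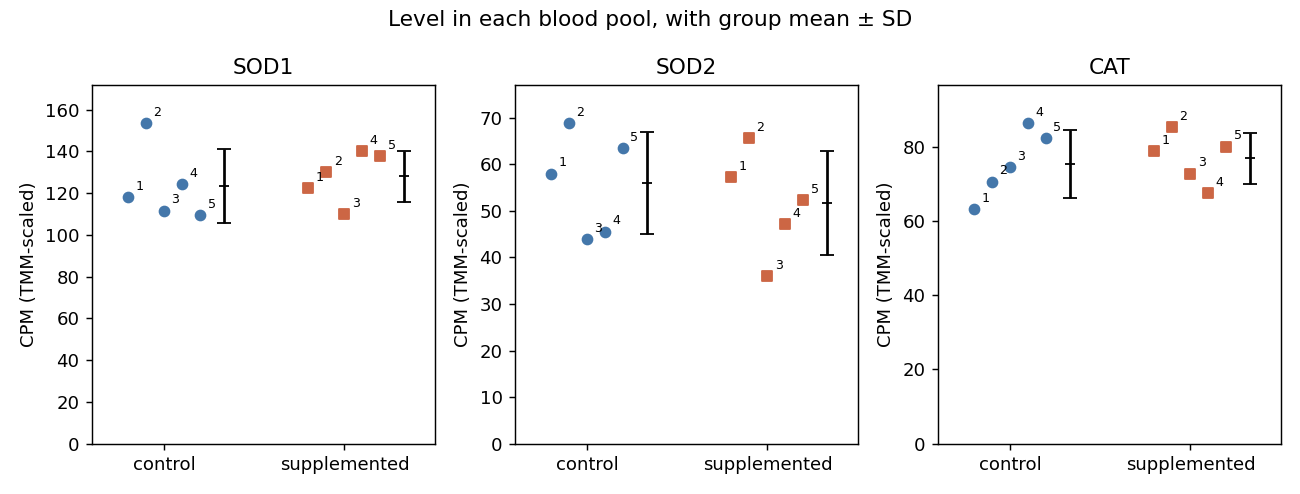
TMM-scaled CPM (vertical axes, from 0) of SOD1, SOD2 and CAT in each control (circles) and supplemented (squares) pool, numbered by pool, with the group mean ± SD as bars. The groups overlap for each gene, and SOD2 shows the widest relative scatter, from 35.9 to 68.8 CPM.

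None of the 3 genes passed the threshold of 0.05 between the groups in edgeR's quasi-likelihood test, with an adjusted p of 1.00 each after Benjamini-Hochberg adjustment over 12932 genes. Their unadjusted p-values in the same edgeR fit were 0.640 for SOD1, 0.502 for SOD2 and 0.792 for CAT. The share of all tested genes called in this comparison was 0%, and 1.97% lay under an unadjusted p of 0.05, without any of the 3. Complete separation of the groups was seen for 0.278% of tested genes, again without any of the 3. DESeq2's Wald test gave log2 differences of 0.05, -0.12 and 0.02 for SOD1, SOD2 and CAT, again with adjusted p-values of 1.00; over 18 alternatives in edgeR, DESeq2 and limma the lowest adjusted p was 0.966, for SOD2. It called 1 other gene and limma's voom called 0. A change of 1.5-fold in either direction lay outside all 3 intervals, which are not adjusted for the number of genes and do not exclude smaller changes.

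The spread between pools was larger than counting error for all 3 genes. SOD1 had a coefficient of variation of 14.4% in control pools and 9.57% in supplemented pools, where counting alone gives 1.73% and 1.70%. For SOD2 these were 19.6% and 21.5%, against 2.60% and 2.72% from counting. For CAT they were 12.3% and 8.94%, against 2.23% and 2.20%. Counting error is a lower limit, since the labels name no molecular identifiers. The number and spread of the pools, rather than depth, thus set most of the width of the intervals.

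Over the 10 pools the highest level was 1.40 times the lowest for SOD1, 1.92 times for SOD2 and 1.37 times for CAT. The standard deviation of log2 CPM was 0.16 for SOD1, 0.30 for SOD2 and 0.15 for CAT, beside a median of 0.26 over all tested genes. Abundant genes vary less between libraries, so genes within 0.5 log2 CPM of each member's own mean were also set beside it. SOD2 exceeded 84.7% of 1916 such genes, whose median was 0.19. SOD1 exceeded 37.4% of 1184 such genes and CAT 31.0% of 1700, with medians of 0.19 for both sets. SOD2 transcripts were thus variable for their abundance in these pools and those of the other two were not, as a description without a test.

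The next comparison put the recorded copper level in the model in place of the group. Copper was tied to group, so these slopes cannot separate copper from group. A model with both terms is given further below. The SOD1 slope on log2 copper was 0.0064 log2 units per doubling of copper, with a standard error of 0.04 (edgeR's quasi-likelihood fit). The SOD2 slope was -0.07 with a standard error of 0.06. The CAT slope was 0.03 with a standard error of 0.04. With 1 pool left out, the SOD2 slope ranged from -0.09 (supplemented pool 2 left out) to -0.03 (control pool 2 left out), and those of SOD1 and CAT took either sign. Adjusted p-values were 1.00 for each, and the unadjusted ones in edgeR were 0.880, 0.275 and 0.416. In this comparison 0% of all tested genes were called and 2.66% lay under an unadjusted p of 0.05. DESeq2 called 7 genes and limma's voom 0, and none of the 3 was called by either.

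The slopes can be read over the whole recorded range, from 23.42 to 342.42, which is 3.87 doublings. The fitted change of SOD1 over that range was 1.02-fold, with a 95% interval from 0.800-fold to 1.29-fold. That of SOD2 was 0.831-fold, from 0.585-fold to 1.18-fold. That of CAT was 1.10-fold, from 0.866-fold to 1.39-fold. A change of 2-fold over the range, in either direction, lay outside all 3 intervals. This holds only for this fit, with a common straight slope and no group term. With group in the model, the SOD2 slope had a wider 95% interval, from -0.343 to 0.136 log2 units per doubling. Over the same 3.87 doublings the lower end of that interval goes beyond a 2-fold fall. In that model a 2-fold fall of SOD2 over the range is therefore not excluded.

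Correlations of log2 CPM with log2 copper gave the same reading and depended on single pools, among them those lowest in copper. Pearson's r over 10 pools was 0.07 for SOD1 (permutation p = 0.835), -0.33 for SOD2 (permutation p = 0.344) and 0.32 for CAT (permutation p = 0.367). Spearman's rho was 0.21 (permutation p = 0.561), -0.19 (permutation p = 0.607) and 0.25 (permutation p = 0.494). These were 3 relations, tested two-sided, and adjustment over all genes is that of the slopes. Without control pools 1 and 2, the 2 farthest from the median on the log2 copper scale, r over the remaining 8 pools was 0.67 for SOD1, 0.03 for SOD2 and -0.39 for CAT. The 10-pool values of all 3 genes thus depended on these pools, and the 8-pool values were not tested. They did not depend on these pools alone. With 1 pool left out, r of SOD1 ranged from -0.11 (supplemented pool 4) to 0.58 (control pool 2). That of CAT ranged from -0.0065 (control pool 1) to 0.61 (supplemented pool 4).

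**Figure D2:**
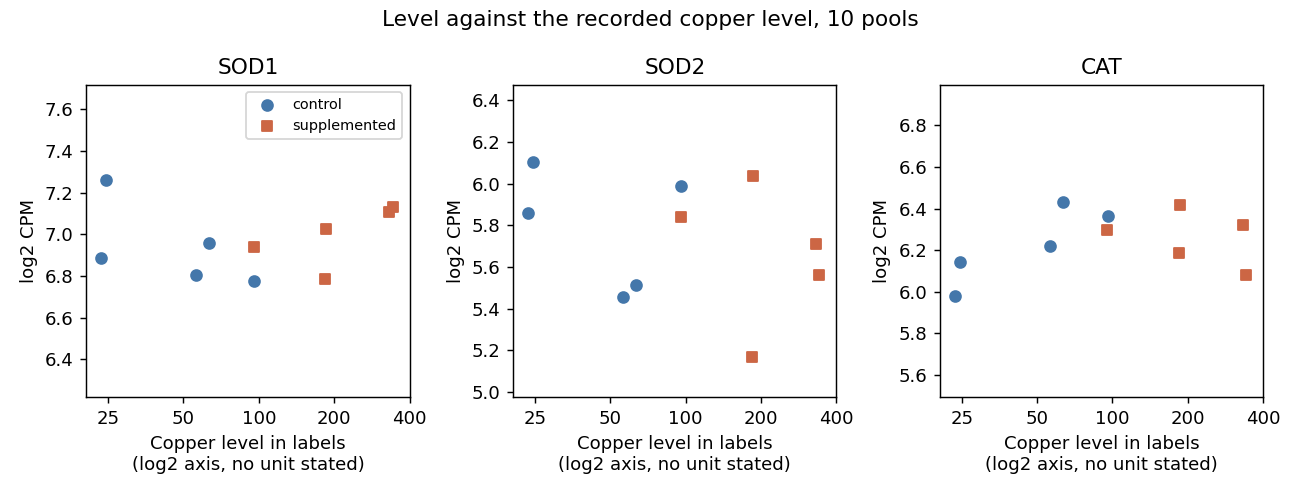
Log2 CPM (vertical axes, each spanning the same 1.5 log2 units) against the copper level in the labels (log2 axis, no unit stated) in control (circles) and supplemented (squares) pools. The fitted slopes of SOD1 and CAT (not drawn) have opposite signs in the groups, but the difference in slopes did not pass the threshold for either. SOD2 scatters most.

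Inside the groups, the fitted slopes of SOD1 and CAT had opposite signs in control and supplemented pools. Among control pools SOD1 had a slope of -0.15 per doubling of copper (SE 0.09) and among supplemented pools one of 0.12 (SE 0.11). CAT had a slope of 0.17 (SE 0.09) among controls and -0.06 (SE 0.10) among supplemented pools. In controls, CAT was lowest in the 2 pools lowest in copper, at 63.1 and 70.5 CPM, and highest in the 2 pools highest in copper, at 86.2 and 82.4 CPM. SOD2 had the same slope of -0.10 in both groups, with standard errors of 0.15 and 0.18.

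The difference between the group slopes was tested by the product of group and log2 copper. It was 0.26 for SOD1 (SE 0.14), 0.0012 for SOD2 (SE 0.23) and -0.24 for CAT (SE 0.13), supplemented minus control. None passed in edgeR, with adjusted p-values of 0.444, 0.999 and 0.466. The unadjusted p-values in edgeR were 0.0888 for SOD1 and 0.104 for CAT. Here 0% of all tested genes were called, while 13.2% lay under an unadjusted p of 0.05, so low unadjusted values were common. DESeq2's Wald test called 148 genes and limma's voom 2317 for this term, and none of the 3 genes was among either. In limma's voom the adjusted p was 0.0867 for SOD1 and 0.123 for CAT, the lowest over 18 alternatives in edgeR, DESeq2 and limma, which reached 0.784 and 0.828. With 1 pool left out, the SOD1 value ranged from 0.15 (control pool 2 left out) to 0.39 (supplemented pool 1 left out), and the CAT value from -0.30 (supplemented pool 5 left out) to -0.16 (supplemented pool 4 left out). With library totals as the only scaling the difference was 0.10 for SOD1 and -0.39 for CAT.

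With group and log2 copper in 1 model, and a common slope in both groups, the slope was -0.03 for SOD1 (SE 0.08), -0.10 for SOD2 (SE 0.11) and 0.08 for CAT (SE 0.07). With the replicate number as a block the slope was -0.26 for SOD1 (SE 0.24), 0.21 for SOD2 (SE 0.23) and 0.10 for CAT (SE 0.28). Inside each group, pool numbers run nearly in order of copper, and these standard errors were wider than without the block. In fits of 9 pools without the block, the SOD1 slope ranged from -0.07 (supplemented pool 1 left out) to 0.04 (control pool 2 left out). That of SOD2 ranged from -0.22 (control pool 5 left out) to -0.05 (control pool 2 left out). That of CAT ranged from 0.03 (control pool 1 left out) to 0.12 (supplemented pool 4 left out). Adjusted p-values were 1.00 for all 3 (edgeR's quasi-likelihood test). In this model 0% of all tested genes were called for the slope and 1.59% lay under an unadjusted p of 0.05, with 1 gene called by DESeq2, none of the 3, and 0 by limma's voom.

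Control pool 5 and supplemented pool 1 had nearly equal copper, 95.61 and 95.48. SOD1 was 110 CPM in the control pool and 122 CPM in the supplemented pool. SOD2 was 63.4 and 57.3 CPM, and CAT was 82.4 and 78.7 CPM. SOD1 was thus higher in the supplemented pool and the other two lower. These are single pools, so no test can be made.

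**Figure D3:**
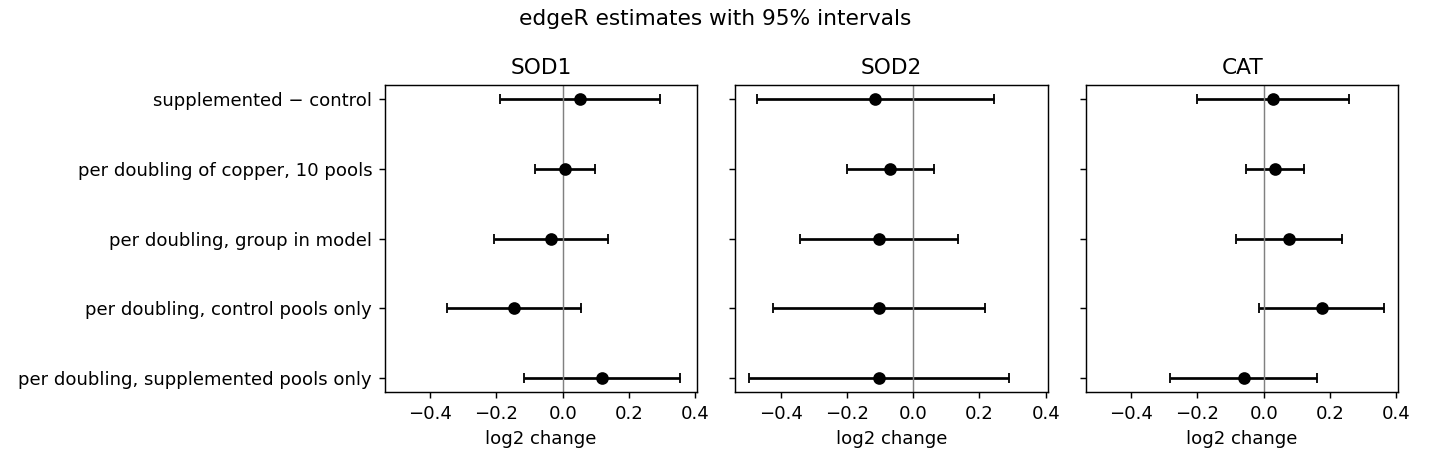
Log2 changes with 95% intervals (horizontal axes) from edgeR for SOD1, SOD2 and CAT. Rows give supplemented minus control, then slopes per doubling of copper over 10 pools, with group in the model, and inside each group of 5 pools. The slopes inside the groups come from a single model of all 10 pools, so their intervals share the spread of both groups. Each interval crosses 0, and the slopes inside the groups have opposite signs for SOD1 and CAT.

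Ratios of 2 genes inside a library do not depend on library size, and they ask whether the balance between the enzymes' transcripts shifted. Ratios are of counts, not corrected for transcript length, so only their change between pools can be read. The SOD2 to SOD1 ratio was 0.490, 0.448, 0.393, 0.366 and 0.578 in control pools 1 to 5, and 0.468, 0.504, 0.326, 0.336 and 0.379 in supplemented pools 1 to 5. Supplemented pools 3 and 4 lay below every control, and supplemented pools 1 and 2 lay among the upper controls. The means were 0.455 ± 0.0841 and 0.403 ± 0.0796 (SD, n = 5 each), a log2 difference of -0.18 (exact permutation test, two-sided p = 0.310). Over sets of 9 pools that difference ranged from -0.27 (supplemented pool 2 left out) to -0.09 (control pool 5 left out).

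The CAT to SOD1 ratio was 0.533, 0.460, 0.666, 0.693 and 0.751 in control pools 1 to 5, and 0.642, 0.655, 0.660, 0.482 and 0.580 in supplemented pools 1 to 5. Control pools 1 and 2, lowest in copper, and supplemented pools 4 and 5, highest in copper, held the 4 lowest values. The group means were 0.621 ± 0.120 and 0.604 ± 0.0756 (SD, n = 5 each), a log2 difference of -0.03 (exact permutation test, two-sided p = 0.873). Over sets of 9 pools it ranged from -0.13 (control pool 2 left out) to 0.05 (supplemented pool 4 left out).

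The CAT to SOD2 ratio was 1.09, 1.03, 1.69, 1.89 and 1.30 in control pools 1 to 5, and 1.37, 1.30, 2.02, 1.43 and 1.53 in supplemented pools 1 to 5. Control pools 1 and 2 held the 2 lowest values, and supplemented pool 3 the highest. The group means were 1.40 ± 0.380 and 1.53 ± 0.288 (SD, n = 5 each), a log2 difference of 0.15 (exact permutation test, two-sided p = 0.452). Over sets of 9 pools that difference ranged from 0.05 (supplemented pool 3 left out) to 0.27 (control pool 4 left out). For 5 pools against 5 the smallest two-sided p is 0.00794, and none of the 3 ratios compared came near it.

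**Figure D4:**
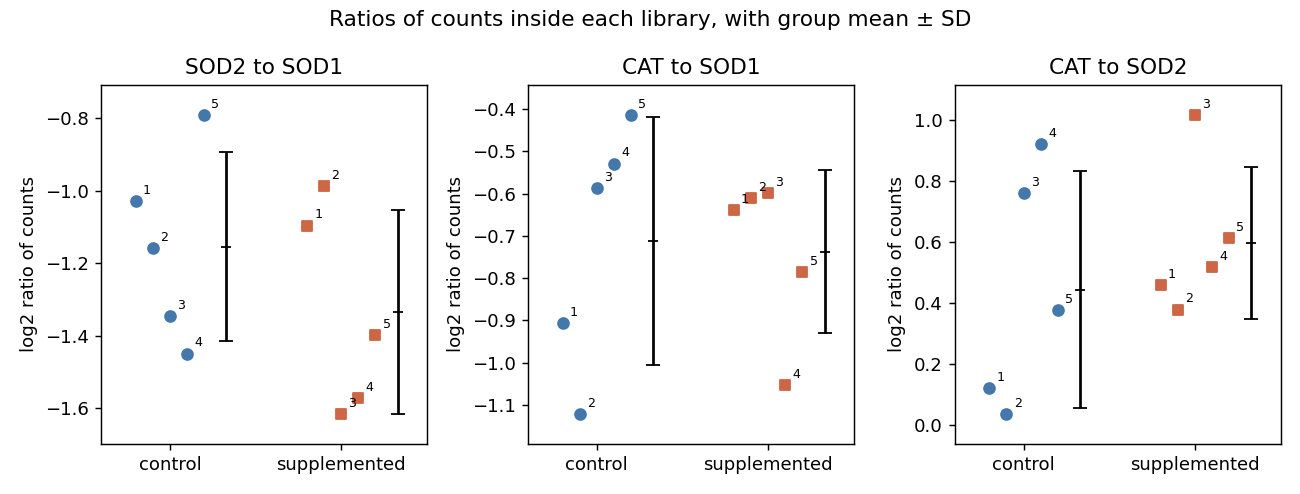
Log2 ratios of counts inside each library (vertical axes) for SOD2 to SOD1, CAT to SOD1 and CAT to SOD2 in control (circles) and supplemented (squares) pools, numbered by pool, with the group mean ± SD as bars. The groups overlap for each ratio, and the supplemented pools lie within a narrower band for both CAT ratios.

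Across the 10 pools the 3 genes showed little likeness to each other. Pearson's r of log2 CPM was 0.42 between SOD1 and SOD2, -0.12 between SOD1 and CAT and 0.11 between SOD2 and CAT, as descriptions over libraries that share their scaling. Among 12931 other genes, SOD2 ranked 2156 by likeness to SOD1 and CAT ranked 8185. The gene most like SOD1 was ENSBTAG00000031869 (r = 0.93), at 5.31 to 10.0 CPM. The gene most like SOD2 was ENSBTAG00000046176 (r = 0.95), at 4.40 to 8.06 CPM. The gene most like CAT was ENSBTAG00000037819 (r = 0.98), at 1.07 to 3.35 CPM. No symbol is at hand for any of them. Each was picked as the highest of 12931 values over only 10 pools, without a test. Of these 12931 genes, an r above 0.9 was reached by 77 with CAT but by 3 each with SOD1 and SOD2. The same count was not made for other tested genes, so whether any of these is unusual was not tested.

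CAT varied along the main axis of difference between the libraries, and SOD1 did not. The sign of the axis is arbitrary and was set so that CAT rises with the score. The first principal component of all tested genes held 33.5% of the variance. Its correlation with log2 CPM over the 10 pools was 0.80 for CAT, 0.37 for SOD2 and 0.05 for SOD1, beside a median absolute value of 0.56 over all tested genes. The absolute value for CAT exceeded that of 78.0% of tested genes, so many genes followed the axis more closely. Scores (in SD units) from 0.549 to 1.73 belonged to supplemented pools 1 and 2 and control pools 4 and 5, with CAT at 78.7 to 86.2 CPM. The remaining 6 pools scored from -1.26 to -0.129, with CAT at 63.1 to 80.0 CPM. With the component in the model, the difference between group slopes was -0.12 for CAT and 0.37 for SOD1, at edgeR adjusted p-values of 0.602 and 0.218. What the component stands for was not tested.

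**Figure D5:**
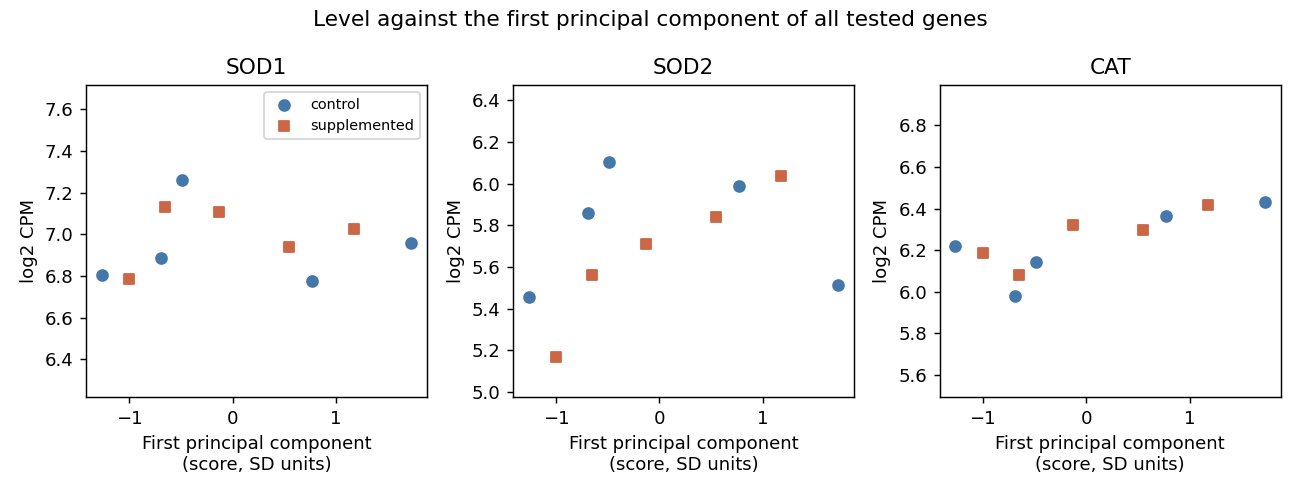
Log2 CPM (vertical axes, each spanning the same 1.5 log2 units) against the score of each pool on the first principal component of all tested genes (horizontal axes, SD units) in control (circles) and supplemented (squares) pools. CAT is higher at high scores in both groups, SOD1 shows no trend, and SOD2 is low in control pool 4, which has the highest score. The sign of the score was set so that CAT rises with it.

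Counts on the strand opposite to the annotation were low for SOD1 and CAT and higher for SOD2. For SOD1 they made up 1.09 ± 0.255% of the counts of both strands without and 0.977 ± 0.251% with the supplement (SD, n = 5 each). For CAT they made up 0.831 ± 0.233% and 0.602 ± 0.198%. For SOD2 they made up 3.25 ± 1.65% and 2.53 ± 0.504%, from 14 counts (0.964%) in control pool 4 to 133 counts (5.62%) in control pool 5. Over all genes the share was 2.13 to 2.88% per library. The levels above use the annotated strand only, and counts without regard to strand kept the sign of the group difference in each of the 3 levels and 3 ratios.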

How the data were processed

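Reads were processed by the submitters with STAR 2.5.1b and HTSeq on genome build UMD3.1, per the submitters' processing notes (roles and annotation release not stated). The authors deposited raw counts of reads for each Ensembl gene, without normalization. Stranded libraries were made from poly(A) RNA. The fourth column was used, the strand with the larger total; the other strand held 2.13 to 2.88% of the counts of both. Multimapping reads (4.64 to 7.10%) are counted to no gene, so any near-identical copy of a member would lower its count. Rows naming no gene (36.1 to 44.2% of reads) stayed out.

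Of 24616 genes, 12932 passed filterByExpr (minimum count 10, by group). Counts were scaled by TMM and tested with edgeR 4.0.16 in R 4.3.3 (quasi-likelihood, Benjamini-Hochberg over all tested genes, threshold 0.05). The models were group, log2 copper, both, and their product. Standard errors came from the coefficient and F statistic. Log2 CPM used a prior count of 2. The group fit and the fit of log2 copper alone were run on simulated data, with outcomes not given here. The fits with both terms or their product were not simulated. Alternatives included DESeq2 1.42.0 and limma 3.58.1.

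The 3 genes, the lists and the tests were chosen with earlier results of these data known. Named genes were the 3 members and, for each, the gene with the highest Pearson r. Lists of antioxidant, copper and blood cell genes were fixed by symbol and could not be applied: the reference table holds 0 of the identifiers. Same-numbered pools are not stated to be pairs.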

Additional observations from a re-analysis of the deposited data

How the results depend on the processing

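All alternatives were planned. Of 297 recomputed values of the 3 genes, 267 kept their sign, 30 turned and 0 passed the threshold. Away from left-out pools, the SOD2 slope with group in the model turned to 0.21 (SE 0.23) with the replicate block. That of SOD1 moved from -0.03 to -0.26 (SE 0.24). The SOD2 difference in slopes, 0.0012, turned to -0.0071 (DESeq2), -0.0073 (DESeq2 size factors), -0.16 (library totals), -0.10 (limma voom), -0.0045 (no filter), -0.0072 (both strands) and -0.039 (replicate block). DESeq2 called 1 gene between the groups, 7 for log2 copper, 1 for log2 copper with group and 148 for the difference in slopes, where limma voom called 2317; the cause was not tested.

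With each pool left out in turn, CAT between the groups moved from -0.028 to 0.083, the SOD1 slope from -0.015 to 0.062, the CAT slope from -0.00015 to 0.068, the SOD1 slope with group from -0.071 to 0.044, the SOD2 difference in slopes from -0.11 to 0.27 and the log2 CAT to SOD1 ratio from -0.13 to 0.053. It moved r with log2 copper from -0.11 to 0.58 for SOD1 and from -0.0065 to 0.61 for CAT. Genes called for log2 copper ranged from 0 to 1, the 1 without control pool 2.

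With the replicate block, 0 genes passed in edgeR in each of the 4 comparisons. Genes under an unadjusted p of 0.05 in edgeR numbered 254 for group and 226 for log2 copper. They numbered 125 for log2 copper with group and 2397 for the difference in slopes. The block gave group differences of 0.06 for SOD1 (SE 0.10), -0.12 for SOD2 (SE 0.098) and 0.03 for CAT (SE 0.12). Without the block these standard errors were 0.11, 0.17 and 0.11, so that of SOD2 fell most. Across genes, deviations of pools with the same number correlated at -0.28 to 0.42 and 1 of 5 numbers matched itself best, so the numbers were not taken as pairs.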
